A study of Mus musculus with 10 samples.

Results

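The *Kcnj* genes encode the pore subunits of inward rectifier (Kir) potassium channels. The members described here are *Kcnj2*, *Kcnj3*, *Kcnj4*, *Kcnj6*, *Kcnj9*, *Kcnj10*, *Kcnj11*, *Kcnj12*, *Kcnj13* and *Kcnj16*, chosen by symbol as 10 of the 55414 genes in the count tables. *Kcnj12* is in the list because the study picked it out of these same libraries. Its direction, p-values, rank and separation between groups here are therefore no independent evidence. The remaining 5 mouse *Kcnj* genes, *Kcnj1*, *Kcnj5*, *Kcnj8*, *Kcnj14* and *Kcnj15*, serve as the comparison within the family.

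RNA was taken from dorsal root ganglia (DRG), the clusters of somatosensory neurons and their glia beside the spinal cord, of mouse embryos at E18.5, and sequenced in bulk. All embryos carried floxed *Dach1* on both alleles. The 5 *WD1* cKO embryos (Wnt1Cre/+; Dach1flox/flox) carried in addition a Cre recombinase that acts in the neural crest and so in both neurons and glia of the ganglion, and the 5 littermate control embryos carried no Cre. Both groups were on a mixed C57Bl/6J and CD1 background. The question is whether loss of *Dach1*, a transcriptional regulator, changes the channel transcripts of the ganglion.

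By title, 5 libraries are control and 5 are cKO, whereas the deposited genotype entry of each group names the other group; the titles were followed. *Dach1* lay at 37.9 ± 2.40 CPM (reads of the gene per 1000000 counted reads; SD, n = 5) in control and at 20.02 ± 0.677 CPM (SD, n = 5) in *WD1* cKO libraries, a log2 fold change of -0.92 with an adjusted p of 5.48e-06 (quasi-likelihood test of edgeR, adjusted by Benjamini-Hochberg), which goes with the titles. That count covers all exons, of which 1 is floxed. Library totals ran from 20465132 to 27528784 counts in control and from 19757596 to 34796562 counts in *WD1* cKO embryos. Of the 17490 genes that reached 10 counts in 5 or more libraries, 7 had an adjusted p under 0.05 and 787 an unadjusted p under 0.05, by the same test. Summed markers of neurons ran from 9633 to 11058 CPM in control and from 10203 to 11395 CPM in *WD1* cKO libraries, and those of satellite glia from 1591 to 1970 CPM and from 1597 to 1969 CPM, so both cell types of a ganglion were present throughout.

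Kir channels pass potassium more readily into the cell than out of it, because magnesium and polyamines block the pore from inside when the membrane is depolarized. They hold the resting potential near the potassium equilibrium potential, and all of them need the membrane lipid PIP2 to open. A channel is a tetramer of *Kcnj* products. The Kir2 subunits (here *Kcnj2*, *Kcnj4*, *Kcnj12*) form strongly rectifying channels of nerve and muscle, the GIRK subunits (here *Kcnj3*, *Kcnj6*, *Kcnj9*) are opened by G protein beta-gamma subunits downstream of opioid, GABA-B and other receptors, the *Kcnj10* and *Kcnj16* products serve glia and epithelia and are the buffer for extracellular potassium in satellite glia, the *Kcnj11* product forms the ATP-sensitive channel with sulfonylurea receptors, and the *Kcnj13* product is a weakly rectifying channel of epithelia.

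What the members share by sequence is the potassium selectivity filter, the narrowest stretch of the pore. The coding sequence around it is shown for 7 members, from GENCODE vM21 transcripts (GRCm38), 5′ to 3′ on the coding strand, as 30 bases with the 15 bases of the filter codons in capitals.
Kcnj2: cagacaACCATTGGCTATGGTttcaggtgt
Kcnj3: gaggccACCATCGGCTATGGCtaccgctac
Kcnj6: gaaaccACCATCGGTTATGGCtaccgggtc
Kcnj9: gagaccACCATCGGCTATGGGcaccgggtc
Kcnj10: cagaccACCATCGGCTATGGCttccgctac
Kcnj11: caggtgACCATTGGTTTCGGCgggcgcatg
Kcnj13: caacttACAATTGGTTATGGTaccatgttt
Of the 30 bases, *Kcnj3* shared 27 with *Kcnj10*, *Kcnj2*, *Kcnj6* and *Kcnj9* 23 each, *Kcnj11* 17 and *Kcnj13* 15. The 15 filter bases of *Kcnj3* are the same as those of *Kcnj10*.

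This likeness is short. In windows of 50 bases, the *Kcnj12*, *Kcnj4* and *Kcnj11* transcripts shared 0 with those of any other gene, and the other members shared none with another *Kcnj* gene except *Kcnj16*, which shared 29 windows with *Kcnj15*. Reads of one member are therefore told apart from those of the others. *Kcnj13* and *Kcnj3* are less certain for another reason. Of the *Kcnj13* windows, 42.1% also lie in *Gigyf2*, which runs on the opposite strand and was measured at 97.9 CPM, and of the *Kcnj3* windows 29.3% also lie in the opposite-strand noncoding gene *Gm26794*. The strand setting of the counting is not given in the sources used here, so reads of these overlapping stretches cannot be assigned to a strand. *Kcnj6* and *Kcnj9* overlap the antisense genes *Gm41505* and *Gm36937*, which were counted at 0.0568 and 0.0152 CPM, and *Kcnj6* also spans the microRNA gene *Gm22745*.

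On CPM per kilobase of annotated exon, the scale on which genes can be compared with each other, the members formed a high, a middle and a low set. *Kcnj12* and *Kcnj10* stood at the top, with means over the 10 libraries of 7.73 and 7.33 CPM per kb, followed by *Kcnj11* at 5.62 and *Kcnj3* at 4.47 CPM per kb. *Kcnj2* lay at 1.93 CPM per kb and *Kcnj13* at 0.795 CPM per kb. *Kcnj9*, *Kcnj4*, *Kcnj16* and *Kcnj6* lay at 0.165, 0.156, 0.0725 and 0.0189 CPM per kb. In this order the ranges over the 10 libraries did not overlap between *Kcnj3* and *Kcnj2*, between *Kcnj2* and *Kcnj13* or between *Kcnj13* and *Kcnj9*, and they overlapped between all other neighbours. The order within the high set depends on the length used. Divided by coding length it read *Kcnj10*, *Kcnj11*, *Kcnj3*, *Kcnj12*, and 4 members held another place.

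The other *Kcnj* genes added 1 of middle level. *Kcnj8*, the partner of sulfonylurea receptors in vessel walls, lay at 2.55 CPM per kb, between *Kcnj3* and *Kcnj2*. *Kcnj14*, *Kcnj15* and *Kcnj5* lay at 0.105, 0.103 and 0.0292 CPM per kb. *Kcnj1*, the renal channel, had 0 reads in 9 libraries and 1 read in *WD1* cKO replicate 1, and a count of 0 over the 5 control libraries allows up to 0.0262 CPM.

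**Figure D1:**
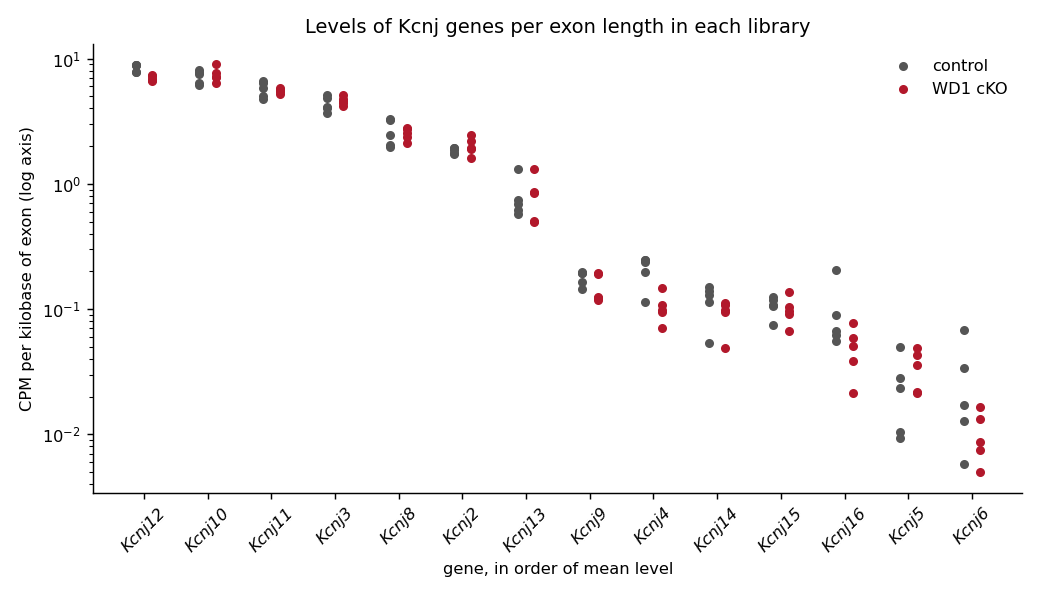
CPM per kilobase of exon (log axis) of 14 *Kcnj* genes in order of their mean, with 1 point for each of the 5 control (grey) and 5 *WD1* cKO (red) libraries; *Kcnj1* is left out because 9 of its 10 values are 0. The 4 genes at the left lie between 3.65 and 8.98 CPM per kb, and *Kcnj6*, at the right, between 0.00498 and 0.0678 CPM per kb.

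In the comparison of *WD1* cKO with control, 7 of the 10 members had enough reads to be tested: *Kcnj2*, *Kcnj3*, *Kcnj9*, *Kcnj10*, *Kcnj11*, *Kcnj12* and *Kcnj13*. None of them had an adjusted p under 0.05 by edgeR's quasi-likelihood test, against 0.04% of all genes tested. At an unadjusted p under 0.05, 1 of the 7 passed, *Kcnj12*, against 4.5% of all genes. *Kcnj12* was also the 1 member past the cut-off of the study (unadjusted p under 0.005 and a log2 fold change beyond 0.15 in either direction), which 0.383% of all genes passed, and the 1 tested member whose libraries did not overlap between the groups, which held for 1.06% of all genes. Because the study picked *Kcnj12* by that cut-off from these same libraries, these passes were largely set in advance and are no independent evidence. The log2 fold changes were below 0 for 3 members and above 0 for 4, with a median of 0.023 beside 2.24e-04 over all genes tested. In bulk tissue, fewer cells of a type and less RNA per cell cannot be told apart.

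**Figure D2:**
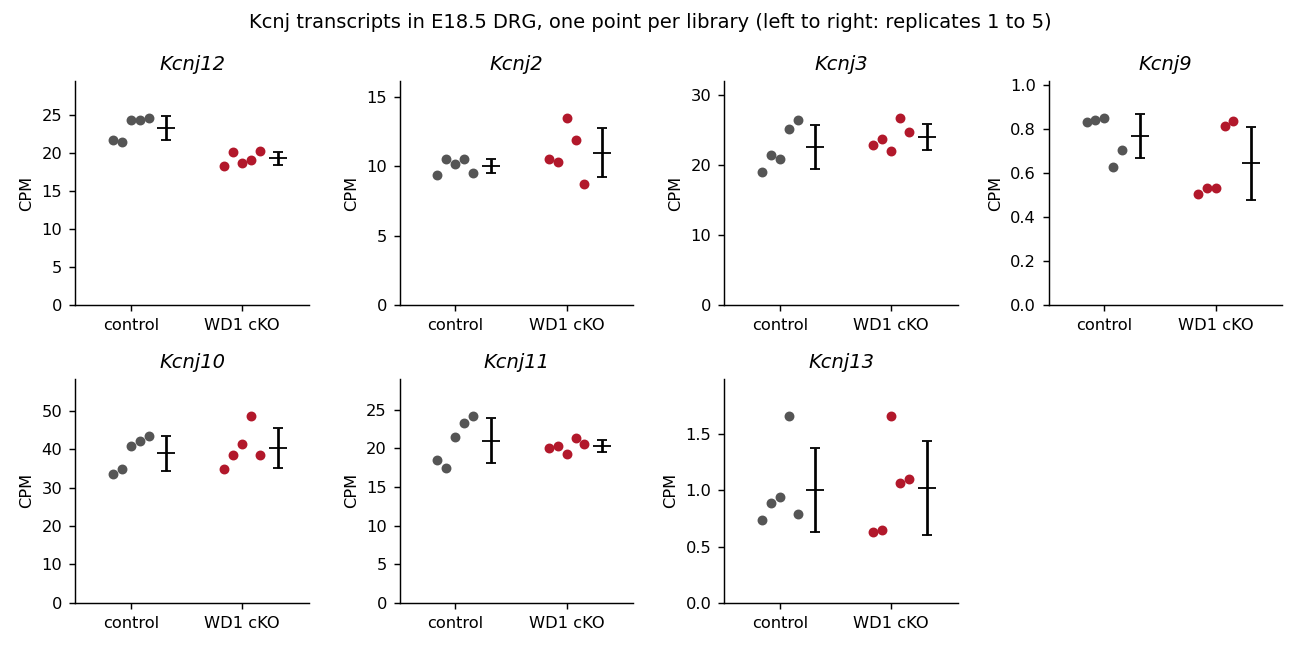
CPM of the 7 tested members in each library, on axes that start at 0, with the points from left to right for replicates 1 to 5 and the bar for the mean and SD of the 5 libraries. For *Kcnj12* the *WD1* cKO libraries reach 20.3 CPM at most and the control libraries start at 21.4 CPM, and for the other 6 genes the groups overlap.

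*Kcnj12* encodes a Kir2 subunit that sets the resting potential of excitable cells. It lies at chr11:60913390-60961957 (GRCm39), on the plus strand. The control libraries, replicates 1 to 5, held 21.7, 21.4, 24.4, 24.3 and 24.5 CPM. The *WD1* cKO libraries held 18.2, 20.1, 18.6, 19.1 and 20.3 CPM. All 5 *WD1* cKO libraries lay below all 5 control libraries, with means of 19.3 ± 0.916 and 23.3 ± 1.59 CPM (SD, n = 5 each). The log2 fold change was -0.27 with a standard error of 0.057 and a 95% interval from -0.39 to -0.15, that is a level of 0.829 of control with an interval from 0.761 to 0.904. The unadjusted p of 4.58e-04 placed the gene at rank 16 of 17490, and the adjusted p was 0.488 by the quasi-likelihood test of edgeR, adjusted by Benjamini-Hochberg, which does not pass. The libraries gave 375 to 704 reads of the gene, and the coefficient of variation within groups was 6.84% in control and 4.75% in *WD1* cKO libraries, where counting error alone gives 4.33% and 4.38%.

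The direction of *Kcnj12* did not depend on the setting. All settings reuse the libraries from which the study picked the gene, so the steady sign is no independent evidence. Across the 19 other settings the log2 fold change ran from -0.31 to -0.24, and within replicates 1 to 3 and replicates 4 and 5 taken apart it was -0.24 and -0.31. The adjusted p ran from 0.0460 to 0.999 over these settings, and the 1 value under 0.05 came from the Wald test of DESeq2. The study also analysed its counts with DESeq2, in an earlier version.

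**Figure D3:**
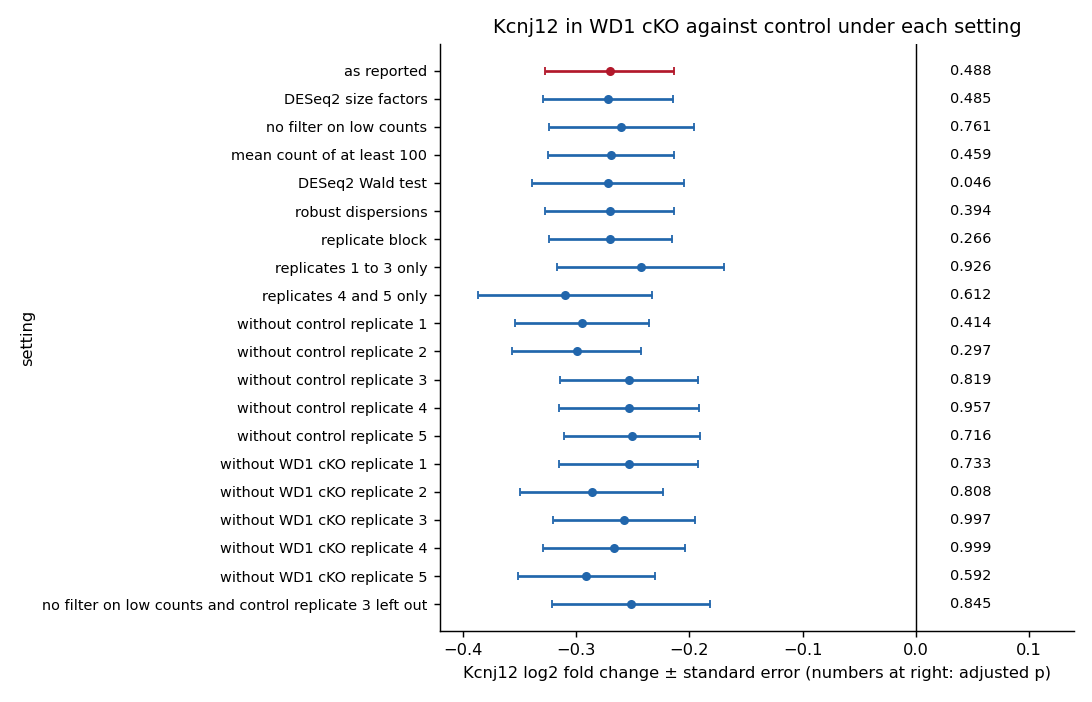
Log2 fold change of *Kcnj12* (*WD1* cKO over control) with its standard error as reported (red) and under the 19 other settings (blue), with the adjusted p of each printed at the right. All points lie between -0.31 and -0.24, and 1 adjusted p, 0.0460, is under 0.05.

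The genes beside *Kcnj12* on the chromosome gave no unadjusted p under 0.05. *Map2k3* and its neighbour *Map2k3os*, on the side of lower coordinates, had log2 fold changes of 0.0013 and 0.054, and *Tnfrsf13b* and *Usp22*, on the other side, 0.33 and -0.017. The tested genes whose log2 CPM followed *Kcnj12* most closely over the 10 libraries were *Spg7*, a mitochondrial protease, with r = 0.93, *Hspb7*, a small heat shock protein of heart and muscle, with r = 0.91, and *Clptm1* with r = 0.91. These correlations include the difference between the groups that *Kcnj12* itself has, and the log2 fold changes of the 3 genes were -0.083, -0.62 and -0.087.

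Kir2 channels are prominent in muscle, and the study concerns neurons of touch, so markers of both were measured beside *Kcnj12*. The 6 muscle markers summed to between 23.2 and 175.7 CPM in control (median 100.9) and between 45.3 and 95.7 CPM in *WD1* cKO libraries (median 52.6). In control replicates 1 to 5 the muscle sums were 108.6, 49.7, 100.9, 23.2 and 175.7 CPM, beside 21.7, 21.4, 24.4, 24.3 and 24.5 CPM of *Kcnj12*. In *WD1* cKO replicates 1 to 5 they were 50.7, 52.6, 95.7, 58.9 and 45.3 CPM, beside 18.2, 20.1, 18.6, 19.1 and 20.3 CPM of *Kcnj12*. The part of muscle RNA in the difference was not tested. Of the 7 markers of A-LTMR, the low-threshold mechanoreceptors with fast fibres, 2 had a lower and 2 a higher level at an unadjusted p under 0.05. Of all genes tested 4.5% passed that threshold. *Ntrk2*, the receptor TrkB, had a log2 fold change of -0.18 and *Calb2*, the calcium buffer calretinin, of -2.06, with an adjusted p of 4.83e-05 for *Calb2* by the quasi-likelihood test of edgeR, adjusted by Benjamini-Hochberg, while the transcription factors *Mafa* and *Shox2* had 0.34 and 0.30. Over the 10 libraries *Kcnj12* went with the mean log2 CPM of the 7 markers at Pearson's r = 0.852 (permutation p = 0.00288, adjusted p = 0.0115) and Spearman's rho = 0.782 (permutation p = 0.0100, adjusted p = 0.0200), adjusted over these and the corresponding pair of values for *Kcnj10*, and r was 0.797 without the 2 libraries farthest from the marker median. The pooled values hold the difference between the groups, in *Kcnj12* and in *Calb2*. The study picked *Kcnj12*, *Calb2* and *Shox2* out of these same libraries, so the pooled r, rho and p-values are no independent evidence. Taken within the groups, as deviations from the group means, r was 0.460 (exact permutation within groups, unadjusted p = 0.227). In replicates 1 to 3, pooled over both groups and so with their difference, r was 0.737 (n = 6, exact permutation p = 0.0972). Over all libraries, also pooled, r was 0.293 without *Calb2*. The relation was thus not shown within groups. The values within groups and without *Calb2* were added after seeing the data, and the value in replicates 1 to 3 was not planned either.

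*Kcnj2* encodes the most widespread Kir2 subunit. The control libraries held 9.36, 10.5, 10.2, 10.5 and 9.55 CPM. Those of *WD1* cKO embryos held 10.5, 10.3, 13.4, 11.9 and 8.75 CPM, a range that takes in all control values. This gave a log2 fold change of 0.13 with a 95% interval from -0.095 to 0.35 and an unadjusted p of 0.234. The spread was wider in *WD1* cKO libraries, with a coefficient of variation of 16.1% against 5.37% in control, and 2 of these libraries moved the value: the log2 fold change was 0.042 without *WD1* cKO replicate 3 and 0.20 without *WD1* cKO replicate 5, where the unadjusted p was 0.0417.

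*Kcnj4*, another Kir2 subunit, is known from forebrain neurons and was near the limit of detection here. The control libraries had 5, 12, 9, 14 and 12 reads and the *WD1* cKO libraries 5, 4, 7, 4 and 11 reads, so that 4 of the 10 libraries reached 10 reads and the gene was not tested. Means were 0.448 ± 0.122 CPM in control and 0.223 ± 0.0604 CPM in *WD1* cKO libraries (SD, n = 5 each), and 4 of the 5 *WD1* cKO libraries lay below all control libraries. With no filter on low counts the log2 fold change was -0.96 with a 95% interval from -1.66 to -0.27, an unadjusted p of 0.00924 and an adjusted p of 0.777 by the quasi-likelihood test of edgeR, adjusted by Benjamini-Hochberg.

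Of the sum of *Kcnj2*, *Kcnj4* and *Kcnj12* per exon length, which leaves out *Kcnj14*, another Kir2 gene, *Kcnj12* made up 80.5% ± 1.39 in control and 76.8% ± 3.22 in *WD1* cKO libraries (SD, n = 5 each). *Kcnj4* made up 1.97% ± 0.510 and 1.14% ± 0.309. Both shares overlapped between the groups. Their size depends on the length used. Over the 10 libraries the means of *Kcnj12*, *Kcnj2* and *Kcnj4* were 7.73, 1.93 and 0.156 CPM per kb of exon. Per kb of coding sequence they were 13.4, 8.18 and 0.251 CPM, so *Kcnj12* led by less.

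*Kcnj3* encodes the GIRK subunit that pairs with the others to form the G protein-gated channel, and lies at chr2:55325982-55488157 (GRCm39), on the plus strand. It was 95.3% ± 1.17 of the sum of *Kcnj3*, *Kcnj6* and *Kcnj9* per exon length, which leaves out *Kcnj5*, in control and 96.7% ± 0.582 in *WD1* cKO libraries (SD, n = 5 each), with ranges that overlapped. The control libraries held 19.0, 21.4, 20.9, 25.1 and 26.5 CPM. In *WD1* cKO embryos they held 22.9, 23.7, 22.0, 26.7 and 24.8 CPM. In both groups replicates 4 and 5 lay above replicates 1 to 3. The difference on the log2 scale was 0.084 with a 95% interval from -0.11 to 0.28 and an unadjusted p of 0.358. It was 0.16 within replicates 1 to 3 and -0.0075 within replicates 4 and 5.

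*Kcnj9*, a GIRK subunit that needs a partner to reach the surface, was tested on 12 to 29 reads per library. The control libraries held 0.829, 0.838, 0.847, 0.626 and 0.704 CPM. Levels in *WD1* cKO embryos were 0.505, 0.532, 0.530, 0.813 and 0.837 CPM. Replicates 1 to 3 of *WD1* cKO lay below all control libraries and replicates 4 and 5 lay within the control range. The log2 fold change was -0.25 with a 95% interval from -0.69 to 0.20, and it was -0.68 within replicates 1 to 3 and 0.32 within replicates 4 and 5.

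*Kcnj6*, the GIRK subunit of many brain neurons, had 2, 1, 11, 7 and 3 reads in control and 3, 1, 2, 2 and 2 reads in *WD1* cKO libraries, and was not tested. Control replicate 3 held 0.518 CPM and the other 9 libraries between 0.0380 and 0.258 CPM. With no filter on low counts the log2 fold change was -1.42 with an unadjusted p of 0.0291 and an adjusted p of 0.777. Without control replicate 3 it was -0.84 with an unadjusted p of 0.180 and an adjusted p of 0.845, both by edgeR's quasi-likelihood test.

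The partners of GIRK channels were read from lists of 10 G protein subunits, 10 receptors and 6 regulators, all measured and tested. None had an adjusted p under 0.05. Of the 10 G protein subunits 1 was lower at an unadjusted p under 0.05, which 4.5% of all genes tested passed in either direction. It was *Gnai2*, an inhibitory alpha subunit, at 284.6 ± 26.5 CPM in control and 254.9 ± 15.3 CPM in *WD1* cKO libraries (SD, n = 5 each). Its log2 fold change was -0.16 with an unadjusted p of 0.0268 by edgeR's quasi-likelihood test, and the groups overlapped. No receptor passed that threshold, with log2 fold changes from -0.27 for *Adora1*, the adenosine A1 receptor, to 0.14 for *Chrm2*, a muscarinic acetylcholine receptor. No regulator passed it either, from -0.082 for *Kctd16*, an auxiliary subunit of GABA-B receptors, to 0.061 for *Snx27*, a sorting nexin of endosomes. The medians of the 3 lists were -0.018, -0.042 and -0.0040.

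*Kcnj10* encodes the Kir channel of satellite glia, which wrap the neuronal cell bodies, and had the highest CPM of the members. The control libraries held 33.4, 34.8, 40.9, 42.1 and 43.4 CPM. In *WD1* cKO embryos the values were 34.8, 38.4, 41.3, 48.6 and 38.5 CPM. The groups overlapped, with means of 38.9 ± 4.54 and 40.3 ± 5.16 CPM (SD, n = 5 each). On the log2 scale the difference was 0.048 with a 95% interval from -0.16 to 0.25 and an unadjusted p of 0.621.

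The level of *Kcnj10* was set beside the mean log2 CPM of 6 satellite glia markers over the 10 libraries, giving Pearson's r = 0.175 (permutation p = 0.628, adjusted p = 0.780) and Spearman's rho = 0.103 (permutation p = 0.780, adjusted p = 0.780), adjusted over the 4 values for *Kcnj10* and *Kcnj12*. Within the groups r was 0.166 (exact permutation within groups, unadjusted p = 0.662). Without the 2 libraries farthest from the median of the markers, r was 0.0401. In the 6 libraries of replicates 1 to 3, pooled over both groups and not planned, r was 0.865 (exact permutation test, p = 0.0292). There rho was 0.657 (exact permutation test, p = 0.175), and replicates 4 and 5 hold too few libraries for a value. Of the 6 satellite glia markers 0 passed an unadjusted p under 0.05, with a median log2 fold change of 0.021. The 6 Schwann cell markers all had log2 fold changes above 0, up to 0.66 for *Egr2*, a regulator of myelination, and none passed. Their sums ran from 588.6 to 912.3 CPM in control and from 561.5 to 999.6 CPM in *WD1* cKO libraries. In both groups the Schwann cell sums of replicates 4 and 5 lay above those of replicates 1 to 3. The tested genes most like *Kcnj10* over the 10 libraries were *Gm12504*, *Trp53inp1* and *Fam13c*, with r of 0.93, 0.92 and 0.92.

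*Kcnj16* encodes the subunit that joins the *Kcnj10* product into pH-sensitive channels, and lies at chr11:110858859-110918794 (GRCm39), on the plus strand of the same chromosome as *Kcnj12* and *Kcnj2*. It had 5, 8, 17, 6 and 6 reads in control and 2, 4, 6, 6 and 8 reads in *WD1* cKO libraries, and was not tested. Per exon length it made up 1.31% ± 0.775 of the sum with *Kcnj10* in control and 0.640% ± 0.214 in *WD1* cKO libraries (SD, n = 5 each). Control replicate 3 held 0.800 CPM and the other 9 libraries between 0.0842 and 0.353 CPM. With no filter on low counts the log2 fold change was -0.92 with an unadjusted p of 0.0477 and an adjusted p of 0.777. Without control replicate 3 it was -0.47 with an unadjusted p of 0.270 and an adjusted p of 0.845, both by edgeR's quasi-likelihood test.

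**Figure D4:**
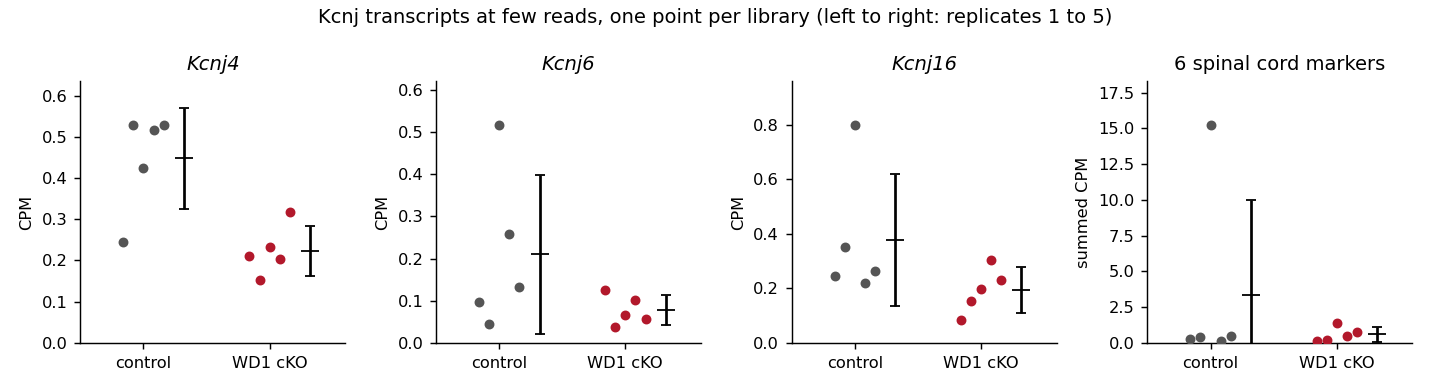
CPM of the 3 members that were not tested and the summed CPM of 6 spinal cord markers in each library, with points from left to right for replicates 1 to 5 and the bar for the mean and SD of 5 libraries. Control replicate 3 is the highest point for *Kcnj6* (0.518 CPM), *Kcnj16* (0.800 CPM) and the markers (15.3 CPM), and lies within the other controls for *Kcnj4*.

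Control replicate 3, the highest library for both *Kcnj6* and *Kcnj16*, also held most of the spinal cord signal. The 6 markers summed to 15.3 CPM there, to between 0.110 and 0.484 CPM in the other controls and to between 0.126 and 1.36 CPM in *WD1* cKO libraries. *Slc6a5*, *Pax2*, *Slc32a1* and *Olig1* reached 4.66, 3.81, 3.30 and 2.68 CPM in it, *Olig2* 0.800 CPM, and *Mnx1*, of motor neurons, did not pass 0.0441 CPM in any control library. Their part in the *Kcnj6* and *Kcnj16* values was not tested beyond leaving that library out. *Kcnj4* kept its size without it, at a log2 fold change of -0.99 with an unadjusted p of 0.0120 and an adjusted p of 0.845 by edgeR's quasi-likelihood test. *Kcnj12* held -0.25 in the same setting.

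*Kcnj11* encodes the pore of the ATP-sensitive channel, which closes as ATP rises, and lies at chr7:45743377-45750188 (GRCm39), on the minus strand. The control libraries held 18.53, 17.5, 21.5, 23.3 and 24.2 CPM. The *WD1* cKO libraries held 20.1, 20.3, 19.3, 21.3 and 20.6 CPM, all within the control range. The log2 fold change was -0.050 with a 95% interval from -0.23 to 0.13 and an unadjusted p of 0.566. It was 0.053 within replicates 1 to 3 and -0.18 within replicates 4 and 5. The coefficient of variation was 13.98% in control and 3.58% in *WD1* cKO libraries, the second below the 4.28% that counting error alone gives.

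The partners of *Kcnj11* differed by less than the spread between libraries. Of *Kcnj11* and *Kcnj8* together, per exon length, *Kcnj11* made up 69.0% ± 4.32 in control and 68.7% ± 3.05 in *WD1* cKO libraries (SD, n = 5 each). *Abcc8*, the sulfonylurea receptor of neurons and beta cells, lay at 60.3 ± 4.53 and 59.6 ± 2.98 CPM, and *Abcc9*, the receptor of muscle and vessels, at 26.1 ± 1.99 and 26.3 ± 1.05 CPM (SD, n = 5 each), with log2 fold changes of -0.017 and 0.012. *Kcnj8* itself held 4.98 to 8.31 CPM in control and 5.44 to 7.12 CPM in *WD1* cKO libraries, with a log2 fold change of -0.032 and a 95% interval from -0.36 to 0.30. The 6 mural cell markers, of the cells in which *Kcnj8* is best known, had a median log2 fold change of -0.021 with 0 at an unadjusted p under 0.05, from -0.20 for *Acta2* to 0.051 for *Rgs5*.

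*Kcnj13* was tested on 15 to 50 reads per library. The control libraries held 0.732, 0.882, 0.941, 1.66 and 0.792 CPM. The *WD1* cKO libraries held 0.632, 0.646, 1.66, 1.07 and 1.10 CPM. Each group had 1 library at 1.66 CPM. The log2 fold change was 0.023 with a 95% interval from -0.64 to 0.69, so a change of either sign by 1.5 times lies within it. *Gigyf2*, which overlaps it, had a log2 fold change of 0.030.

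Of the other *Kcnj* genes, 2 were tested and both are given without a pass: *Kcnj8*, above, and *Kcnj15*, an epithelial subunit, at -0.096 with a 95% interval from -0.57 to 0.38. *Kcnj14* had 3 to 11 reads and *Kcnj5*, a GIRK subunit of the heart, 1 to 7 reads per library.

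**Figure D5:**
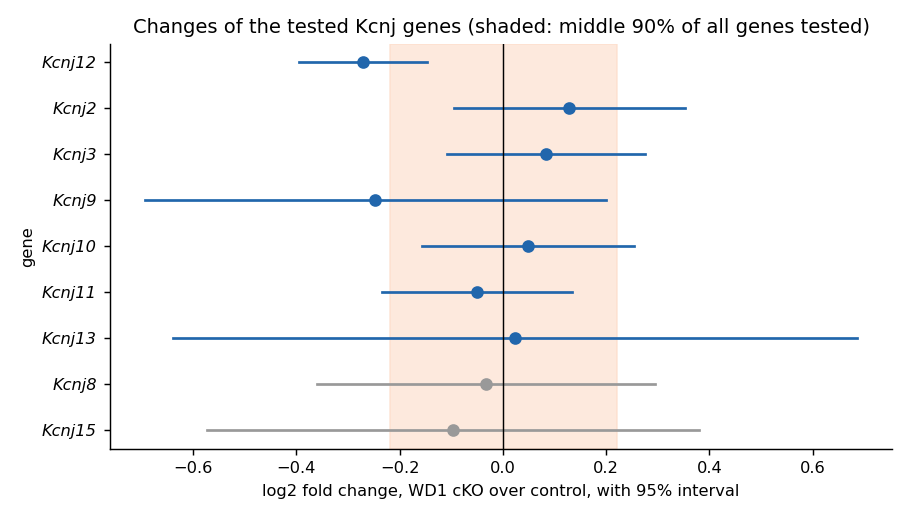
Log2 fold change (*WD1* cKO over control) with its 95% interval for the 7 tested members (blue) and 2 other tested *Kcnj* genes (grey), over a shaded band from -0.22 to 0.22 that holds the middle 90% of all 17490 genes tested. The interval of *Kcnj12* lies below 0, from -0.39 to -0.15, and those of the other 8 genes include 0.

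Among the members the widths of these intervals differed. For *Kcnj2*, *Kcnj3*, *Kcnj10* and *Kcnj11* they lay within a level of 0.851 to 1.28 of control, and for *Kcnj9* and *Kcnj13* they reached from 0.619 to 1.15 and from 0.642 to 1.61 of control. Once the group means were taken out, the highest correlations over the 10 libraries were *Kcnj11* with *Kcnj12* and *Kcnj3* with *Kcnj11*, each at r = 0.81. *Kcnj3* with *Kcnj10* and *Kcnj10* with *Kcnj11* followed, each at r = 0.73, and then *Kcnj3* with *Kcnj12* at r = 0.61. Replicates 4 and 5 lay above replicates 1 to 3 for *Kcnj3* and *Kcnj11* in both groups and for *Kcnj10* in control. The same held for *Kcnj9* and *Kcnj16* in *WD1* cKO, at few reads. For *Kcnj12* these replicates overlapped in both groups. Its means in replicates 4 and 5 were 24.4 against 22.5 CPM in control and 19.7 against 19.0 CPM in *WD1* cKO libraries. The part of this split in the correlations was not tested. These are descriptions over libraries that share their depth and tissue, and no pair of the 21 was tested.

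Enzymes on the route to PIP2 and a list of scaffolds of Kir channels were measured as well. Of 8 kinases on the route to PIP2, 0 passed an unadjusted p under 0.05, with a median log2 fold change of -0.034 and a range from -0.069 for *Pip5k1c* to 0.10 for *Pip5k1b*, both of which make PIP2. Of 11 scaffold genes 0 passed, with a median of 0.040 and a range from -0.084 for *Dlg3* to 0.13 for *Dlg2*, both of which encode PDZ-domain proteins of synapses.

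Markers of the cells that the ganglion or its surroundings could hold were counted in the same way. At an unadjusted p under 0.05, which 4.5% of all genes tested passed, 1 of 5 connective tissue markers was higher (*Lum*, a matrix proteoglycan, 0.22). None passed among 8 neuron, 5 proprioceptor, 4 general glia, 5 endothelial, 5 macrophage, 6 muscle and 5 blood markers. The blood markers had a median log2 fold change of -0.94 and the muscle markers of -0.57. In control replicates 1 to 5 the blood sums were 2464, 1633, 1071, 154.9 and 182.7 CPM. In *WD1* cKO replicates 1 to 5 they were 1134, 699.4, 509.2, 242.6 and 189.0 CPM. Replicates 4 and 5 thus lay below replicates 1 to 3 in both groups. The part of blood and muscle RNA in the values of the members was not tested.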

How the data were processed

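Per the labels and the study's methods, the authors extracted RNA from DRG of E18.5 embryos, prepared stranded mRNA libraries, made reads with bcl2fastq 2.20.0.422, aligned them to GRCm39 with STAR 2.7.8a, obtained reads per gene from featureCounts 2.0.1, and deposited the raw counts of each library. They analysed these counts with DESeq2. The strand setting and the handling of reads with several matches are not given in the sources used here. Where embryos share a litter is not stated either.

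From these counts, genes that reached 10 counts in 5 or more of the 10 libraries were kept (17490), scaled by TMM and tested with the quasi-likelihood test of edgeR 4.0.16 in R 4.3.3 (group as the only term, Benjamini-Hochberg adjustment over all genes kept). CPM are counts per 1000000 of the TMM-scaled library size. The 95% intervals come from the same fit and include the spread between libraries. Library totals ran from 19757596 to 34796562 counts, and the floor of 3 counts covers counting error only. Symbols, exon lengths and overlaps came from GENCODE vM21 (GRCm38), which matched 52081 of 55414 identifiers. Its gene span equalled that of the GRCm39 annotation for 5 of 5 genes with both. Likeness used log2 CPM with a prior count of 2, and correlations 100000 permutations or all of them.

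Members and lists were chosen with earlier results of these data known. Named were the members, the other *Kcnj* genes and *Dach1*, every list gene with an unadjusted p under 0.05 or else the highest and lowest log2 fold change, the 3 genes most like *Kcnj12* and *Kcnj10*, the 2 tested genes on each side of *Kcnj12*, and genes that overlap a member. A few genes and sequences that these rules would name are not reported here. Libraries of a group differed by more than sampling noise, with a chi-square of 4.39 to 15.4 for each degree of freedom, so each was counted as a sample. Alternatives were DESeq2 1.42.0, other scaling, filters and dispersions, a replicate block, subsets of replicates, and each library left out. The code was tested on simulated data.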

Additional observations from a re-analysis of the deposited data

Results flagged for a closer look

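In 7 of 56 groups of 5 libraries, 1 library stood apart from the others by Dixon's test at the 95% level, where chance gives about 2.8. Among the members, *Kcnj13* was 1.66 CPM in control replicate 4 and 0.732 to 0.941 CPM in the other controls, and *Kcnj16* was 0.800 CPM in control replicate 3 and 0.221 to 0.353 CPM in the other controls. Among the other *Kcnj* genes, *Kcnj14* was 0.132 CPM in *WD1* cKO replicate 3 and 0.260 to 0.305 CPM in the rest of its group, and *Kcnj1* was 0.0421 CPM, a single read, in *WD1* cKO replicate 1 and 0 in the rest.

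Of the marker sums, the spinal cord markers were 15.3 CPM in control replicate 3 against 0.110 to 0.484 CPM in the other controls, and the neuron markers were 9633 CPM in the same library against 10672 to 11058 CPM. The muscle markers were 95.7 CPM in *WD1* cKO replicate 3 against 45.3 to 58.9 CPM in the rest of its group.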

How the results depend on the processing

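No member other than *Kcnj12* had an adjusted p under 0.05 in any of the 19 other settings, and *Kcnj12* did in 1 of them (DESeq2 Wald test, log2 fold change -0.27, adjusted p 0.0460, count of members 1). At an unadjusted p under 0.05, 1 of 7 members passed as reported, beside 787 of 17490 genes. With no filter on low counts 4 of 10 passed (with *Kcnj4*, *Kcnj6* and *Kcnj16*, all at few reads), beside 1496 of 37123 genes. In replicates 1 to 3 only, 3 of 7 passed (with *Kcnj3* and *Kcnj9*), beside 865 of 17490 genes. In replicates 4 and 5 only, 2 of 7 passed (with *Kcnj11*), beside 1127 of 17490 genes. Without *WD1* cKO replicate 5, 2 of 7 passed, beside 664 of 17490 genes. The second was *Kcnj2*, which ran from 0.042 to 0.20 with each library left out. With no filter and control replicate 3 left out, a setting added after seeing the data, 2 of 10 passed, beside 1367 of 36639 genes. The count of members past the cut-off of the study was 0 in replicates 1 to 3 only, beside 60 genes over all, and 1 elsewhere, beside 47 to 142 genes. Leaving out 1 library at a time gave 0 members at an adjusted and 1 to 2 at an unadjusted p under 0.05. Over all 17490 genes these settings gave 3 to 6 and 636 to 975.

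Signs turned only for values whose interval includes 0. In replicates 1 to 3 only, *Kcnj11*, *Kcnj8* and *Kcnj15* were 0.053, 0.087 and 0.0088, and in replicates 4 and 5 only, *Kcnj3*, *Kcnj9* and *Kcnj13* were -0.0075, 0.32 and -0.20. With no filter and without control replicate 3, *Kcnj8* was 0.063. With each library left out, *Kcnj10* ran from -0.025 to 0.093, *Kcnj11* from -0.11 to 0.0053, *Kcnj13* from -0.23 to 0.30, *Kcnj8* from -0.12 to 0.067 and *Kcnj15* from -0.25 to 0.0071. Causes of these turns were not tested. The order of members by level had 4 at another place by coding length and 4 with no division by length.

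Groups share replicate numbers, which nothing in the labels ties to a litter or day. Deviations of same-numbered libraries correlated at 0.0359 to 0.391, and 3 of 5 libraries in each group correlated best with their own number. With the replicate number as a block, *Kcnj12* had a log2 fold change of -0.27 and an adjusted p of 0.266, and 0 members had an adjusted p under 0.05. Over all genes, the count at an unadjusted p under 0.05 was 1241 with the block and 787 without, and that past the cut-off of the study 133 and 67. That last count was 128 with no filter and 142 in replicates 4 and 5, and DESeq2 gave 19 genes with an adjusted p under 0.05 where edgeR gave 7. Members at few reads per library are limited by depth.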
